A study of Mus musculus with 18 samples.

Results

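The genes described here are 10 members of the FGF-ERK pathway: the ligands Fgf4, Fgf8 and Fgf15, the receptors Fgfr1 and Fgfr2, the feedback inhibitors Dusp6, Spry2 and Spry4, and the Ets factors Etv4 and Etv5. They were taken by symbol from the 45706 genes of the count table, and 9 of the 10 had enough counts to be tested, among 16619 genes. RNA was sequenced from mouse induced pluripotent stem cells (iPSCs) before and 24 h after their induction into epiblast-like cells (EpiLCs), to ask what loss of Hmga2, a chromatin protein, changes in this transition. The 6 groups were wt, Hmga2 KO#1 and Hmga2 KO#2 cells at 0 h and at 24 h, with 3 biological replicates in each group and 18 libraries in all. The wt libraries came from 1 iPSC clone and KO#1 and KO#2 are 1 clone each, so clone and genotype cannot be told apart. At 0 h all lines grew on inactivated fibroblast feeders with serum, leukaemia inhibitory factor and 2i, the MEK inhibitor PD0325901 with the GSK3 inhibitor CHIR-99021. For induction they were moved off the feeders to basement membrane matrix and given Activin A and bFGF. Cell state, medium, MEK inhibitor and feeders changed together between the time points and cannot be told apart.

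FGF ligands bind receptor tyrosine kinases, which activate RAS, RAF, MEK and finally the kinase ERK. Active ERK switches on genes that restrain the same pathway, among them the Sprouty genes and the ERK phosphatase gene Dusp6, together with the Ets factors Etv4 and Etv5. In mouse pluripotent cells Fgf4 is the main autocrine ligand, and FGF-ERK signalling is known for moving cells out of the naive state, which a MEK inhibitor helps to hold.

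Total counts were 3466436 to 23872837 per library, and levels are given as CPM, each count relative to the library total times its TMM factor. A floor of 3 counts corresponded to 0.116 to 0.984 CPM, a limit that covers counting error only. Hmga2, the check of the labels, was at 13.3 to 22.4 CPM in wt at 0 h, 1.75 to 10.2 in KO#1 and 1.84 to 8.25 in KO#2. At 24 h Hmga2 was at 5.51 to 5.93 CPM in wt, 0.871 to 3.67 in KO#1 and 3.02 to 10.5 in KO#2, so libraries of that clone are called KO#2-labelled throughout. The summed CPM of 10 naive genes went from 3118 to 4303 at 0 h to 300 to 327 at 24 h in wt, and that of 8 epiblast genes, Fgf5 among them, from 131 to 205 up to 1331 to 2210. At 24 h the epiblast genes summed to 578 to 1160 CPM in KO#1 and to 555 to 1294 CPM in KO#2-labelled libraries. Protein-coding genes took 41.3% to 77.4% of the counts in wt and KO#1 libraries and 76.3% to 84.7% in those labelled KO#2. Scaling by library size alone moved the median of all log2 fold changes by -0.61 in wt over time and by 1.04 for KO#2-labelled libraries against wt at 24 h, so all changes are relative to the bulk of genes. In these bulk samples fewer cells of a type and less RNA per cell cannot be told apart.

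**Figure D1:**
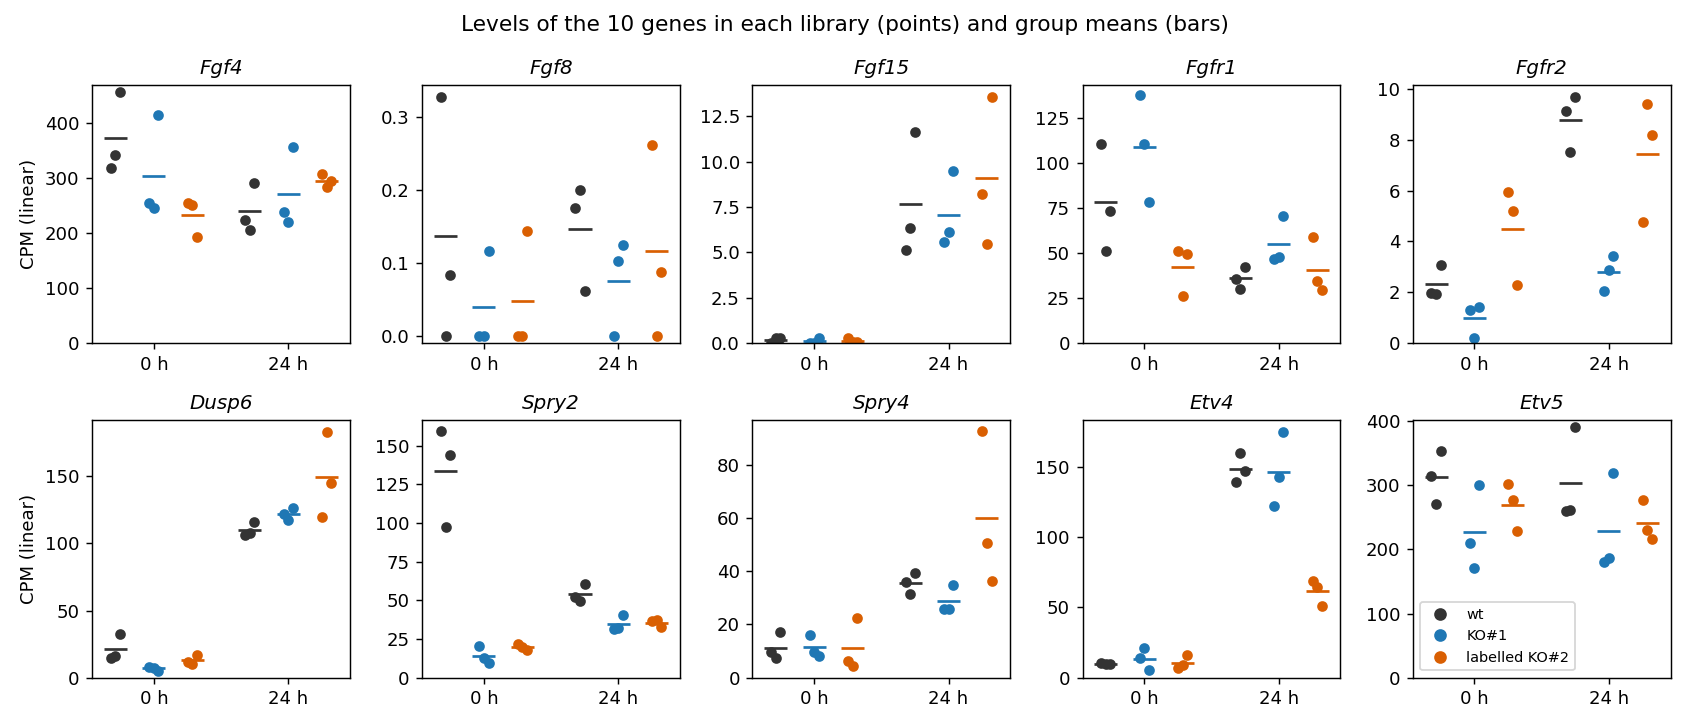
Levels of the 10 genes, in CPM on linear axes that differ in scale between genes, at 0 h and 24 h. Points are the 18 libraries, coloured by line, and bars are means of 3 libraries. Etv4 lies at 5.31 to 21.1 CPM in all 0 h libraries and at 51.3 to 175 CPM in all 24 h libraries, and Spry2 is highest in wt at 0 h.

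Per kilobase of exon (RPKM), the levels of the 10 genes spanned several orders of magnitude in wt. At 0 h the level was 117 ± 23.0 RPKM for Fgf4, 76.3 ± 10.1 for Etv5 and 64.0 ± 15.5 for Spry2 (SD, n = 3). Fgfr1 followed with 7.93 ± 3.04 RPKM, Dusp6 with 6.74 ± 3.12, Etv4 with 3.22 ± 0.0462, Spry4 with 2.38 ± 1.06 and Fgfr2 with 0.225 ± 0.0636. Within these steps, Etv5 and Spry2 did not differ beyond their spread, and neither did Fgfr1 and Dusp6 or Etv4 and Spry4. At 24 h the level was 75.1 ± 14.0 RPKM for Fgf4, 74.1 ± 18.4 for Etv5, 47.9 ± 3.33 for Etv4, 35.2 ± 1.66 for Dusp6 and 25.9 ± 2.71 for Spry2. Spry4 then had 7.47 ± 0.813 RPKM, Fgfr1 3.63 ± 0.602, Fgf15 2.51 ± 1.13, Fgfr2 0.851 ± 0.110 and Fgf8 0.108 ± 0.0548. Fgf4 and Etv5 again led and lay within their spread of each other, while Etv4 and Dusp6 had moved above Spry2.

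The first question was how these genes changed over 24 h of induction in each line. In wt, 5 of the 9 tested genes rose (Fgf15, Fgfr2, Dusp6, Spry4 and Etv4) and 2 fell (Fgfr1 and Spry2), where 26.0% of all genes tested rose and 24.7% fell. In KO#1, 6 rose, the 5 of wt and Spry2, and 1, Fgfr1, fell, where 20.1% of all genes rose and 20.6% fell. In KO#2-labelled libraries, 5 rose (Fgf15, Dusp6, Spry2, Spry4 and Etv4) and the other 4 did not pass, where 12.7% of all genes rose and 13.3% fell. "Rose" and "fell" stand for an adjusted p-value under 0.05 by the quasi-likelihood test of edgeR, adjusted by Benjamini-Hochberg over all genes tested, which gave every p-value below unless another tool is named. The median log2 fold change over the 9 genes was 1.63 in wt, 1.34 in KO#1 and 0.84 in KO#2-labelled libraries, beside 0.03, 0.0037 and -0.03 over all genes tested. With library sizes alone, the share of all called genes that rose moved from 51.3% to 21.4% in wt and, for KO#1, from 49.4% to 11.4%, and the count of the 9 genes that changed in KO#1 dropped from 7 to 4.

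**Figure D2:**
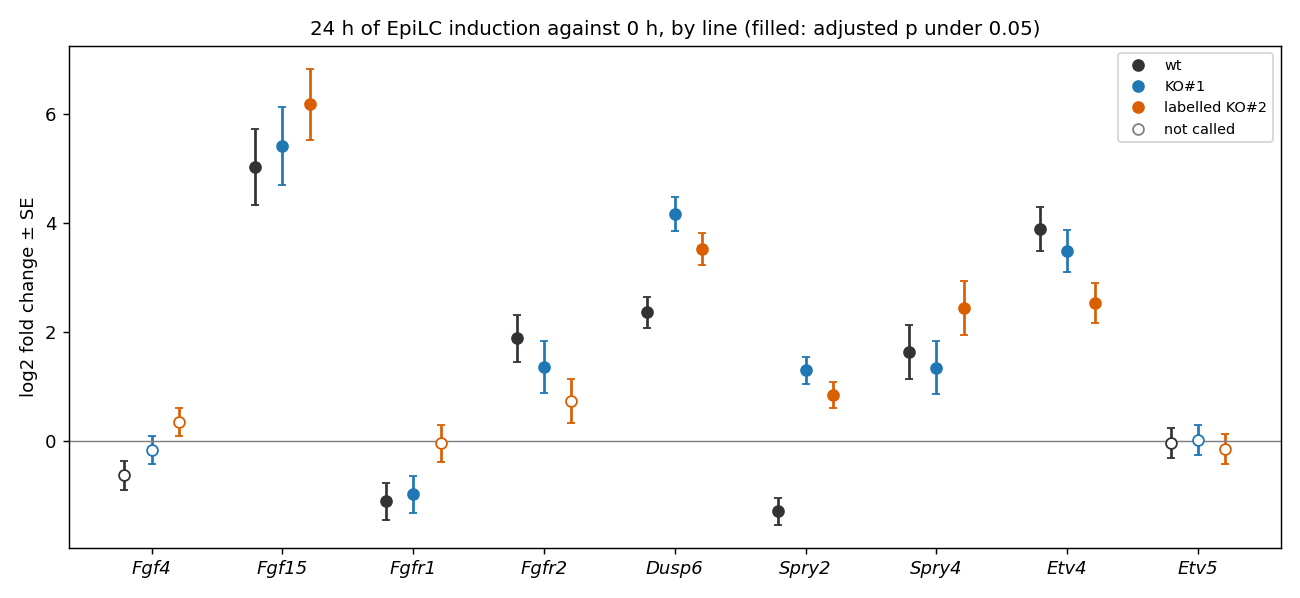
Fitted log2 fold change of the 9 tested genes at 24 h against 0 h, with SE bars, in wt, KO#1 and KO#2-labelled libraries. Filled points have an adjusted p under 0.05. Fgf15, Dusp6, Spry4 and Etv4 lie above 0 in all 3 lines, while Spry2 lies at -1.30 in wt, 1.29 in KO#1 and 0.84 in KO#2-labelled libraries.

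Among the ligands, Fgf15 went from the edge of detection to a low level in every line, Fgf4 was abundant throughout, and Fgf8 was hardly detected. Fgf15, known in the adult as a hormone of the gut, had 0, 3 and 3 counts in the wt libraries at 0 h and 87, 63 and 188 counts, or 5.10, 6.31 and 11.6 CPM, at 24 h. In KO#1 it had 0, 0 and 5 counts at 0 h and 5.59, 6.13 and 9.46 CPM at 24 h. KO#2-labelled libraries had 6, 1 and 1 counts at 0 h and 8.20, 5.46 and 13.6 CPM at 24 h. Every 24 h library was above every 0 h library, and the 3 lines overlapped at each time. From the pooled counts the rise was 33.8-fold in wt (95% exact binomial interval 15.4 to 92.8), 43.2-fold in KO#1 (18.3 to 134) and 75.9-fold in KO#2-labelled libraries (38.3 to 177). These intervals overlap and cover counting error only. The adjusted p was 2.36e-05, 3.04e-05 and 4.78e-06 in the same order. Exons of Fgf15 share bases with the antisense genes Gm26793 and Gm39119, and whether reads were counted by strand is not given in the sources used here.

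Fgf4 lies near Fgf15 on chromosome 7 of GRCm38, at 144847367 to 144865243 on the plus strand, with Fgf15 at 144896531 to 144900953. Its level was 319, 343 and 456 CPM in wt at 0 h and 223, 206 and 291 CPM at 24 h. Every wt library at 24 h was below every wt library at 0 h, yet the log2 fold change of -0.63 (SE 0.26) had an adjusted p of 0.0517. It passed in 8 of 9 other ways of running the test and in 5 of 18 runs without a single library. Fgf4 in KO#1 was at 254, 246 and 414 CPM at 0 h and 238, 219 and 356 CPM at 24 h, which overlap, with an adjusted p of 0.628. Fgf4 in KO#2-labelled libraries was at 254, 251 and 193 CPM at 0 h and 307, 284 and 295 CPM at 24 h, with a log2 fold change of 0.34 (SE 0.26) and an adjusted p of 0.366. Fgf8, a ligand of the gastrulating embryo, had 0 to 5 counts in any library and was not tested. The added bFGF is a protein of the medium and is not seen in these counts.

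The receptor genes moved in opposite directions in wt and KO#1, with Fgfr1 falling and Fgfr2 rising, and neither passed in KO#2-labelled libraries. Fgfr1, the FGF receptor of the epiblast, was at 111, 51.1 and 73.4 CPM in wt at 0 h and 35.7, 30.1 and 41.9 CPM at 24 h. In KO#1 it was at 138, 111 and 78.0 CPM at 0 h and 46.4, 47.8 and 70.2 CPM at 24 h. The groups did not overlap in either line. The log2 fold change was -1.12 (SE 0.34, adjusted p 0.0110) in wt and -0.99 (SE 0.34, adjusted p 0.0259) in KO#1. In KO#2-labelled libraries the levels of 51.0, 26.2 and 49.2 CPM at 0 h and 59.0, 34.1 and 29.1 CPM at 24 h overlapped, with an adjusted p of 0.931. Without replicate 1 of wt at 0 h, its highest, the wt change was -0.82 with an adjusted p of 0.0600. In KO#1 the call was lost without replicate 1 or 2 of either time point, down to -0.78 with an adjusted p of 0.120 without replicate 1 at 0 h, and with the groups alone and the replicate block (-0.95, 0.0973).

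Fgfr1 is also a receptor of fibroblasts, and the summed level of 8 fibroblast genes fell with it over time in wt and KO#1. That sum was 110 to 390 CPM in wt at 0 h and 19.0 to 34.6 at 24 h, 183 to 514 and 38.7 to 51.8 in KO#1, and 331 to 898 and 71.0 to 219 in KO#2-labelled libraries. Of the 8 genes 6 fell and 1 rose in wt and in KO#1, and 3 (Lox, Thy1 and Acta2) fell in KO#2-labelled libraries. The 1 that rose was Dcn, a defining fibroblast gene that was at 0 in all wt libraries at 0 h. In KO#2-labelled libraries the sum fell without overlap and the change of Fgfr1 did not pass. At 0 h Fgfr1 was lower there than in wt, close to the threshold (adjusted p 0.0454). At that time 4 of the 8 fibroblast genes were higher there than in wt, and the sums overlapped. The part of feeder cells in the Fgfr1 falls of wt and KO#1 was not tested.

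Fgfr2, the receptor that marks primitive endoderm in the early embryo, was low. It was at 1.97, 1.93 and 3.09 CPM in wt at 0 h and 9.15, 7.51 and 9.70 CPM at 24 h, with no overlap, a 3.68-fold rise (log2 1.88, SE 0.44, adjusted p 0.00203). In KO#1 it was at 1.30, 0.209 and 1.40 CPM at 0 h and only at 2.06, 2.86 and 3.42 CPM at 24 h, a 2.57-fold rise (log2 1.36, SE 0.47, adjusted p 0.0289). The KO#1 libraries at 24 h thus reached about the level of wt at 0 h. Among KO#2-labelled libraries it was at 5.93, 5.22 and 2.30 CPM at 0 h and 4.76, 9.40 and 8.21 CPM at 24 h, which overlap (log2 0.73, SE 0.40, adjusted p 0.188). The KO#1 rise was 0.58 with an adjusted p of 0.397 with library sizes alone and 1.40 with 0.0650 with the groups compared alone, or 1.53 with 0.119 with the block added, and it was lost without replicate 1 or 2 at 0 h or replicate 2 or 3 at 24 h, with an adjusted p of up to 0.0981. Fgfr2 shares exon bases with Ctbp2, on the same strand, so reads of the pair could be split between them. Of 8 primitive endoderm genes 7 were tested, and their summed level was 5.23 to 12.8 CPM in all 0 h libraries, 1.70 to 2.11 in wt, 5.11 to 9.11 in KO#1 and 15.1 to 29.4 in KO#2-labelled libraries at 24 h, and its part in the Fgfr2 values was not tested.

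Among the feedback inhibitors, Dusp6 and Spry4 rose in all 3 lines, while Spry2 fell in wt and rose in KO#1 and KO#2-labelled libraries. Dusp6 lies on chromosome 10 of GRCm38, at 99263231 to 99267489 on the plus strand, and Spry2 on chromosome 14, at 105891947 to 105896819 on the minus strand. The 250 bases before the start of each gene, from the RefSeq promoter table of GRCm38.p6, are shown because these genes, both known as ERK feedback inhibitors, went opposite ways in wt. The Dusp6 stretch is chr10:99262981-99263230 on the plus strand, the Spry2 stretch is chr14:105896820-105897069 on the minus strand, and both are read 5′ to 3′. Capitals mark the Ets core GGAA, or TTCC where it lies on the other strand.
Dusp6: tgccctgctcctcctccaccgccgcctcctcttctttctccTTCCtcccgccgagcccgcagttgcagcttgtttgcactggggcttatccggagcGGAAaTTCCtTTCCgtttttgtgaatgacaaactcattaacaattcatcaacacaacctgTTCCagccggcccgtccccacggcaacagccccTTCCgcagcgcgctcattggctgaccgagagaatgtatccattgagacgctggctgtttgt
Spry2: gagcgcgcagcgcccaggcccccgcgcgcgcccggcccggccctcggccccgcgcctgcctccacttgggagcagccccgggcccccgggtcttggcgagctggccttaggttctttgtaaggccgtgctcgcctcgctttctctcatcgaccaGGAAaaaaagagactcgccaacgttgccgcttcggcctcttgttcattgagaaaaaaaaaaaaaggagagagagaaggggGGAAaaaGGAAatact
Dusp6 held 6 such cores and Spry2 held 3. At least 1 was present in 93.4% of 32851 promoter stretches of this length, with a median of 3 each, so a match is no more than a description. The longer Ets motifs CCGGAAG and AGGAAGT, which contain this core, were found on either strand in 6.91% and 7.69% of all stretches and not in these windows. The AP-1 motif TGACTCA, in 4.46% of all stretches, was not in these windows either. Entries of the table were used for 5 of the 10 genes, which does not show that the table lacks the others.

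Dusp6, the phosphatase that switches off ERK, rose most of the 3 inhibitors. It was at 14.8, 16.2 and 32.4 CPM in wt at 0 h and 106, 108 and 116 CPM at 24 h, a 5.14-fold rise (log2 2.36, SE 0.29, adjusted p 7.01e-06). In KO#1 it started lower, at 7.82, 7.52 and 5.31 CPM, and reached 122, 118 and 127 CPM, a 17.9-fold rise (log2 4.17, SE 0.31, adjusted p 1.61e-07). KO#2-labelled libraries went from 11.6, 10.5 and 16.8 CPM to 120, 183 and 145 CPM, an 11.5-fold rise (log2 3.52, SE 0.30, adjusted p 6.27e-07). No 0 h library came near any 24 h library, and these calls held in all 18 runs without a library and all 9 other ways of running the test.

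Spry2, a Sprouty protein that restrains RAS-ERK signalling, was at 159, 97.3 and 144 CPM in wt at 0 h and fell to 52.1, 49.8 and 60.5 CPM. In KO#1 it was at 20.3, 12.7 and 9.81 CPM at 0 h and rose to 31.7, 32.1 and 40.7 CPM. KO#2-labelled libraries had 21.9, 19.8 and 17.7 CPM at 0 h and rose to 36.4, 37.4 and 32.8 CPM. The time points did not overlap in any line, and at each time the 6 libraries labelled KO were below all 3 wt libraries. The fall in wt was 2.46-fold (log2 -1.30, SE 0.25, adjusted p 0.000390). The rise was 2.45-fold in KO#1 (log2 1.29, SE 0.25, adjusted p 0.000833) and 1.79-fold in KO#2-labelled libraries (log2 0.84, SE 0.25, adjusted p 0.0173). With library sizes alone these rises kept their direction but not their call, at 0.51 (adjusted p 0.243) and 0.81 (adjusted p 0.107). Without replicate 3 of KO#2 at 0 h the latter was 0.77 with an adjusted p of 0.0685.

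Spry4, another Sprouty gene, was at 9.51, 7.44 and 17.0 CPM in wt at 0 h and 35.9, 31.5 and 39.2 CPM at 24 h (3.10-fold, log2 1.63, SE 0.50, adjusted p 0.0114). KO#1 went from 16.2, 9.81 and 8.23 CPM to 25.9, 25.7 and 35.0 CPM (2.54-fold, log2 1.34, SE 0.49, adjusted p 0.0369). KO#2-labelled libraries went from 6.34, 4.32 and 22.4 CPM to 92.5, 50.6 and 36.5 CPM (5.44-fold, log2 2.44, SE 0.50, adjusted p 0.00164). The direction was the same in each line and the groups did not overlap, but KO#2-labelled libraries were spread widely at both times. The KO#1 call was lost without replicate 2 or 3 at 0 h or any replicate at 24 h, down to 1.14 with an adjusted p of 0.113, and with library sizes alone at 0.57 and 0.382. The wt call was lost with library sizes alone at 1.01 (adjusted p 0.115) and without replicate 2 of wt at 0 h at 1.38 (adjusted p 0.0519).

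**Figure D3:**
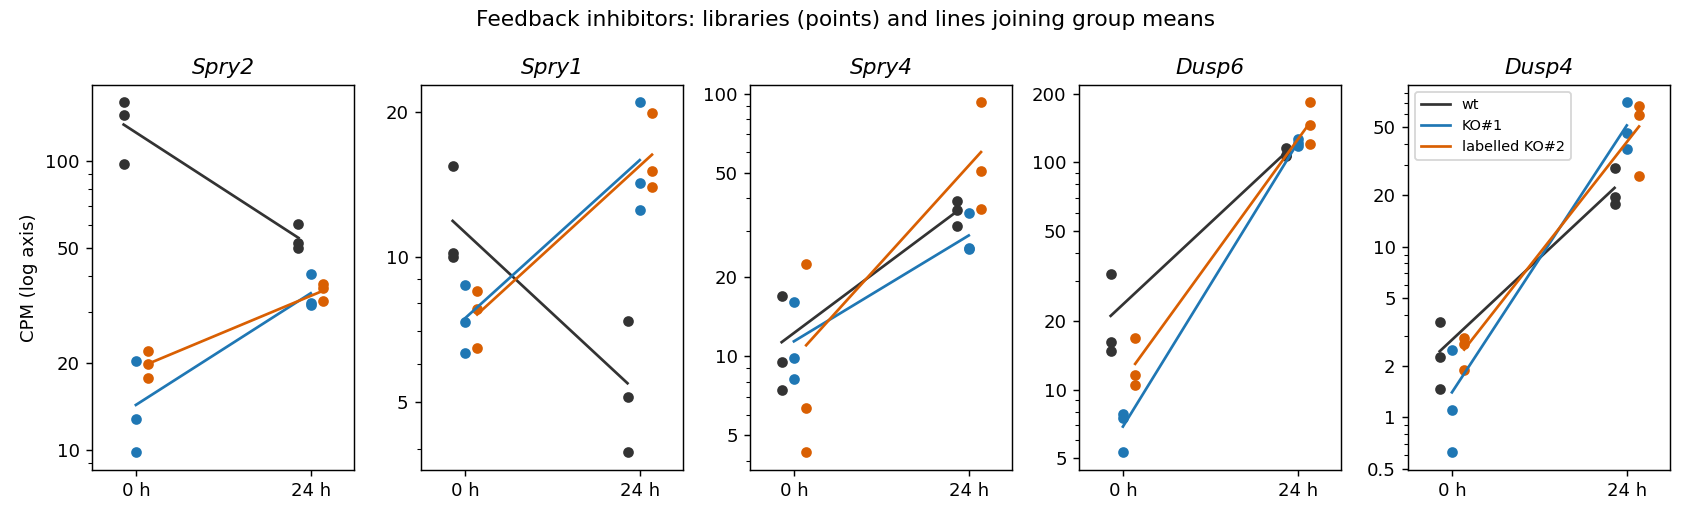
Levels of Spry2, Spry1, Spry4, Dusp6 and Dusp4 at 0 h and 24 h, in CPM on log axes that differ between genes, with points for libraries and lines joining the means of 3 libraries. Spry2 and Spry1 go down in wt and up in both lines labelled KO, while Spry4, Dusp6 and Dusp4 go up in all 3 lines.

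The Ets factors parted from each other: Etv4 rose in all lines, and the change of the abundant Etv5 did not pass in any. Etv4 was at 10.2, 9.91 and 9.92 CPM in wt at 0 h and 139, 159 and 147 CPM at 24 h, a 14.9-fold rise (log2 3.89, SE 0.40, adjusted p 1.24e-06). KO#1 went from 13.8, 21.1 and 5.31 CPM to 122, 143 and 175 CPM, an 11.2-fold rise (log2 3.49, SE 0.39, adjusted p 5.63e-06). KO#2-labelled libraries went from 7.11, 8.90 and 15.9 CPM to 68.8, 64.8 and 51.3 CPM, a 5.80-fold rise (log2 2.54, SE 0.37, adjusted p 0.000104). Thus wt and KO#1 reached overlapping levels at 24 h and KO#2-labelled libraries stayed below both. Etv5 was at 271 to 354 CPM in wt at 0 h and 260 to 391 CPM at 24 h, 172 to 300 and 180 to 319 CPM in KO#1, and 228 to 302 and 217 to 277 CPM in KO#2-labelled libraries. The adjusted p of its change was 0.912, 0.992 and 0.718, and the SE of each log2 fold change was 0.27.

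The second question was how the lines labelled KO differed from wt before induction, with the MEK inhibitor present. Both lines had less Spry2 and less Dusp6. In KO#1, these 2 genes were lower, where 2.68% of all genes tested were lower and 3.99% higher. In KO#2-labelled libraries, 4 were lower (Fgf4, Fgfr1, Dusp6 and Spry2), where 16.6% of all genes were lower and 21.5% higher. The summed level of 8 pluripotent cell genes was 1605 to 1897 CPM there against 2602 to 3239 CPM in wt, without overlap, and 5 of the 8 (Pou5f1, Utf1, Sall4, Cdh1 and Lin28a) were lower, and its part in these 4 calls was not tested. In KO#1 that sum was 2600 to 2932 CPM. The lines share the wt libraries, so these comparisons are not independent. The median log2 difference over the 9 genes was -0.46 for KO#1 and -0.68 for KO#2-labelled libraries, beside 0.02 and 0.10 over all genes. With library sizes alone, the share of called genes that were higher moved from 59.8% to 71.3% for KO#1 and, for KO#2-labelled libraries, from 56.4% to 90.3%, and of the 4 genes lower in the latter only Spry2 was still called (-2.27, adjusted p 6.44e-05), while Fgfr2 was called higher (1.34, 0.0429).

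Spry2, with the levels given above, was 9.37-fold lower in KO#1 (log2 -3.23, SE 0.27, adjusted p 2.54e-07) and 6.72-fold lower in KO#2-labelled libraries (log2 -2.75, SE 0.26, adjusted p 1.26e-06). Both calls held in every run without a library and in all 9 other ways of running the test. The fibroblast sum of wt at 0 h overlapped that of KO#1 and that of KO#2-labelled libraries. In the latter, 4 of its 8 genes were higher than in wt. The part of feeder cells in the Spry2 differences was not tested. Dusp6 was 3.15-fold lower in KO#1 (log2 -1.66, SE 0.30, adjusted p 0.00161), with no overlap. In KO#2-labelled libraries the Dusp6 levels overlapped those of wt and the difference of -0.72 (SE 0.28, adjusted p 0.0481) passed in 9 of 18 runs without a library and in 3 of 9 other ways. Without replicate 3 of wt at 0 h, its highest, that difference was -0.26 with an adjusted p of 0.472.

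The other calls at 0 h were as close to the threshold. Fgf4 was lower in KO#2-labelled libraries than in wt by a log2 difference of -0.68 (SE 0.26, adjusted p 0.0494) and passed in 4 of 18 runs without a library and 4 of 9 other ways. Fgfr1 was lower there by -0.89 (SE 0.34, adjusted p 0.0454) and passed in 12 of 18 and 6 of 9, with -0.59 and an adjusted p of 0.194 without replicate 1 of wt. Its 6 values did not overlap, by a margin of 51.0 against 51.1 CPM. Fgfr2 gave -1.14 in KO#1 (adjusted p 0.198) and 0.91 in KO#2-labelled libraries (adjusted p 0.105), where it also passed without replicate 3 of KO#2 at 0 h (1.22, 0.0411). Fgf15, Spry4, Etv4 and Etv5 gave adjusted p-values of 0.380 to 0.995 against wt at 0 h, and their groups overlapped, as did those of Fgf4 (0.587) and Fgfr1 (0.464) in KO#1.

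The third comparison was between these lines and wt at 24 h. For KO#1, whose libraries pair with those of wt by replicate number at this time, 1 gene differed in the fit of all groups, with or without the number as a block, and 5 differed in a fit of these groups alone with the block, given after the unpaired values. In the unpaired fit of all groups the 1 gene, Fgfr2, was lower in KO#1, where 3.61% of all genes tested were lower and 6.25% higher. It was 3.15-fold lower (log2 -1.66, SE 0.42, adjusted p 0.0152), with 2.06 to 3.42 CPM in KO#1 against 7.51 to 9.70 CPM in wt. The call was lost without replicate 1 or 3 of wt or replicate 1 or 2 of KO#1, with adjusted p-values of 0.0524 to 0.0811. In KO#2-labelled libraries 1 gene, Etv4, was lower, where 16.0% of all genes were lower and 21.3% higher. It was 2.41-fold lower (log2 -1.27, SE 0.35, adjusted p 0.00883), with no overlap. With library sizes alone, which raised the median of all genes in that comparison by 1.04, it was -0.20 with an adjusted p of 0.657, and the share of called genes that were higher went from 57.1% to 94.8%. Under that scaling 4 other genes were instead called higher, Fgf4 by 1.31 (adjusted p 0.00552), Fgfr1 by 1.21 (0.0127), Dusp6 by 1.49 (0.00143) and Spry4 by 1.79 (0.00477), and Spry4 was also called without a filter on low counts, by 0.79 (0.0390). At this time the 10 naive genes summed to 485 to 604 CPM in KO#1 and 313 to 719 in KO#2-labelled libraries, against 300 to 327 in wt, and 5 and 6 of them were higher than in wt, whose part in these values was not tested. The median over the 9 genes was -0.12 and 0.18 in KO#1 and KO#2-labelled libraries, beside -0.02 and 0.20 over all genes.

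Spry2 was below wt at 24 h in each of the 6 libraries labelled KO, by -0.64 (SE 0.24, adjusted p 0.119) in KO#1 and by -0.61 (SE 0.24, adjusted p 0.0575) in KO#2-labelled libraries, where library sizes alone turned it to 0.43 (0.280). Neither passed, though the latter did in DESeq2 (0.0449), with the groups alone (0.0140) and with the groups alone and the block (0.0448), and the former with the groups alone (0.0456). Dusp6, 3.15-fold apart between KO#1 and wt before induction, gave 0.15 (SE 0.27, adjusted p 0.838) at 24 h and 0.44 (SE 0.27, adjusted p 0.207) in KO#2-labelled libraries, which passed with library sizes alone as above. In the fit of KO#1 and wt at 24 h alone with the replicate block, Fgfr1 was higher by 0.62 (adjusted p 0.000969), while Fgfr2 was lower by -1.65 (0.000214), Spry2 by -0.62 (0.000498), Etv5 by -0.41 (0.00473) and Spry4 by -0.28 (0.0436). The same fit called 22.0% of 13378 genes higher and 20.5% lower.

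**Figure D4:**
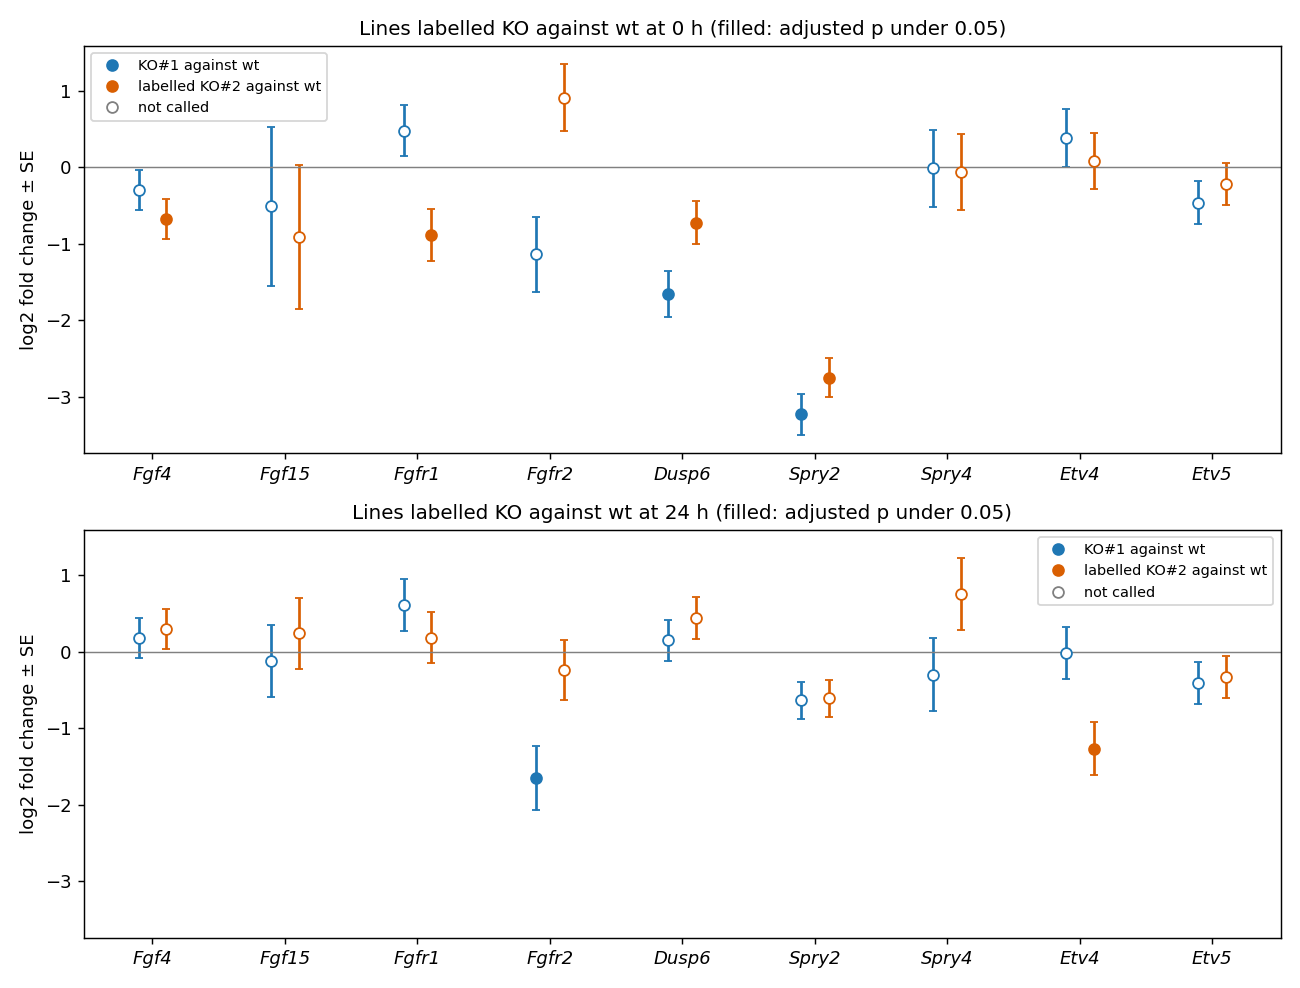
Fitted log2 fold change of the 9 tested genes in KO#1 and in KO#2-labelled libraries against wt, at 0 h (top) and 24 h (bottom), with SE bars and filled points for an adjusted p under 0.05. Spry2 lies at -3.23 and -2.75 at 0 h and at -0.64 and -0.61 at 24 h. Fgfr2 of KO#1 and Etv4 of KO#2-labelled libraries are the filled points at 24 h.

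The last question was whether the response to induction itself differed between a line labelled KO and wt, tested as an interaction of line and time. Spry2 was the 1 gene of the 9 that passed, with a higher response in KO#1, where 0.253% of all genes tested had a higher and 0.138% a lower response. It was also the 1 gene that passed in KO#2-labelled libraries, where 0.951% had a higher and 0.517% a lower response. Both comparisons share the same wt libraries and are not independent. The difference in log2 response was 2.59 (SE 0.35, adjusted p 0.00359) in KO#1 and 2.14 (SE 0.35, adjusted p 0.00694) in KO#2-labelled libraries. In each of these lines all 24 h libraries were above all 0 h libraries, and in wt all were below. Both calls held without any single library, but with library sizes alone the KO#1 difference was 2.39 with an adjusted p of 0.0731. With library sizes alone the share of all called responses that were higher also moved, from 64.6% to 50.0% in KO#1 and, for KO#2-labelled libraries, from 64.8% to 94.4%, and with protein-coding genes only the latter was 80.0%.

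The difference of the Dusp6 response in KO#1 from wt was 1.80 (SE 0.40), with an adjusted p of 0.0534 that missed the threshold. It passed in DESeq2, without a filter on low counts, with at least 10 counts in every library, with protein-coding genes only and without replicate 1 of wt at 0 h. For KO#2-labelled libraries the Dusp6 difference was 1.16 (SE 0.39, adjusted p 0.106). Etv4 gave -1.36 (SE 0.50, adjusted p 0.132), Fgf4 0.98 (SE 0.37, adjusted p 0.138), Fgfr1 1.07 (SE 0.47, adjusted p 0.188) and Fgfr2 -1.15 (SE 0.59, adjusted p 0.244) in those libraries. There Dusp6 passed in DESeq2 (1.21, adjusted p 0.0370) and with library sizes alone (1.77, 0.0459), Fgf4 passed in DESeq2 (1.02, 0.0367), and Etv4 passed without a filter on low counts (-1.36, 0.0283). A p that misses the threshold does not show that the lines respond alike.

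The rest of the pathway was counted by role, to be read against the 26.0% of all genes that rose and 24.7% that fell in wt, 20.1% and 20.6% in KO#1 and 12.7% and 13.3% in KO#2-labelled libraries, and against medians over all genes of 0.03, 0.0037 and -0.03. Of 19 other ligand genes 11 were tested, and 1 rose and 5 fell in wt, 1 and 4 in KO#1, and 2 and 2 in KO#2-labelled libraries, with median log2 fold changes of -1.14, -1.41 and -0.66. Of the 5 that fell in wt, Fgf21 and Fgf23 both lost their call without replicate 1 or without replicate 3 of wt at 24 h. Fgf5, the ligand that marks the epiblast, had 0 to 5 counts in every 0 h library and 43 to 371 counts in every 24 h library, with log2 fold changes of 5.71, 5.76 and 5.98 in wt, KO#1 and KO#2-labelled libraries (adjusted p 3.00e-05, 0.000111 and 2.38e-05). Fgf10, a ligand of connective tissue, had 6 to 106 counts at 0 h, 0 in all wt and KO#1 libraries at 24 h and 3 to 8 in KO#2-labelled libraries, a fall that went with the fibroblast sum and whose origin was not tested. Of 5 other receptor and co-receptor genes 4 were tested, and 2, Fgfr4 and Klb, fell in wt while the 4 did not pass in the lines labelled KO, with medians of -1.37, 0.08 and 0.43. The fall of Fgfr4 lost its call without replicate 3 of wt at 24 h (-1.55, adjusted p 0.0502). Klb, the co-receptor of Fgf15, was at 1.31 to 1.58 CPM in wt at 0 h and 0.200 to 0.587 CPM at 24 h. KO#1 had 8.93 to 11.1 CPM at 0 h and 7.28 to 12.8 CPM at 24 h. KO#2-labelled libraries had 4.84 to 9.45 CPM of Klb at 0 h and 7.58 to 11.6 CPM at 24 h. Klb was thus above wt in every library labelled KO, by log2 differences of 2.81 and 2.22 at 0 h (adjusted p 0.000103 and 0.000354) and 4.81 and 4.64 at 24 h (3.45e-07 and 5.74e-07). Fgfr4 had 5 to 63 counts and at 24 h was higher in KO#1 by 2.20 (adjusted p 0.0126) and in KO#2-labelled libraries by 1.63 (0.0233). Both Fgfr4 calls were lost without replicate 3 of wt at 24 h, the first also without replicate 3 of KO#1 at 24 h and the second without replicate 1 of wt or replicate 1 or 2 of KO#2 at 24 h.

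Of 14 other feedback inhibitor genes 13 were tested, and the other, Spry3, was not in the count table. Of these 13, 5 rose and 6 fell in wt, 5 rose and 2 fell in KO#1, and 5 rose in KO#2-labelled libraries, with medians of 0.12, 0.04 and 0.56. Spry1, a Sprouty gene like Spry2, was at 10.2, 10.0 and 15.4 CPM in wt at 0 h and fell to 3.93, 5.11 and 7.35 CPM (log2 -1.13, adjusted p 0.00397). In KO#1 it rose from 8.73, 7.31 and 6.30 CPM to 12.5, 14.2 and 20.9 CPM (log2 1.10, adjusted p 0.00639), and in KO#2-labelled libraries from 7.80, 6.48 and 8.49 CPM to 19.9, 14.0 and 15.0 CPM (log2 1.10, adjusted p 0.00765). Spry1 thus moved in opposite directions as Spry2 did. Its 0 h difference from wt of -0.69 in KO#1 (adjusted p 0.188) and -0.66 in KO#2-labelled libraries (0.0750) did not pass, though the latter did in DESeq2 (-0.71, 0.0381). At 24 h Spry1 was above wt by 1.54 (0.00178) and 1.57 (0.000472). With library sizes alone its rises were 0.35 (adjusted p 0.495) and 1.07 (0.0585), and the rise in KO#1 was 1.10 (0.0749) with the groups alone and the replicate block. Dusp4, an ERK phosphatase of the nucleus, rose by 3.31, 5.17 and 4.34 on the log2 scale in wt, KO#1 and KO#2-labelled libraries. At 24 h it had 17.8 to 29.0 CPM in wt, 37.4 to 70.1 in KO#1 and 26.0 to 66.7 in KO#2-labelled libraries, and it was higher than wt by 1.22 (adjusted p 0.0466) and 1.19 (0.0186). These 2 Dusp4 differences from wt lost their call without 8 and 4 of the 18 libraries, taken singly, down to 0.95 in each without replicate 3 of KO#1 or replicate 1 of KO#2 at 24 h, and that of KO#1 also with library sizes alone (1.21, adjusted p 0.109). Spred2 fell in wt by 1.90 and in KO#1 by 1.54 on the log2 scale, the latter lost without replicate 1 or 2 of either time point, and its change in KO#2-labelled libraries was 0.30 and did not pass.

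Of 19 adaptor and kinase genes, 1 rose and 7 fell in wt, 3 and 7 in KO#1, and 4 and 1 in KO#2-labelled libraries, with medians of -0.04, -0.15 and 0.16. Hras rose in all lines, by 1.31, 1.10 and 0.72 on the log2 scale, calls that were lost with library sizes alone (0.73, 0.34 and 0.69). The last was also lost without a filter on low counts (0.74, adjusted p 0.0600). It was lost as well without replicate 1 or 3 at 0 h or 2 or 3 at 24 h. Sos1, the exchange factor that loads RAS, fell by 1.68 in wt and by 1.65 in KO#1, while its value of -0.23 in KO#2-labelled libraries did not pass. Of 17 other targets of ERK and Ets factors, 4 rose and 8 fell in wt and in KO#1, and 4 and 2 in KO#2-labelled libraries, with medians of -0.36, -0.30 and 0.26. Myc rose by 3.50, 4.48 and 3.95. Cic, a repressor that ERK inactivates, fell by 2.88 in wt and 2.61 in KO#1, with -0.64 and no call in KO#2-labelled libraries. Egr1, an immediate early gene, fell by 5.27 in wt, from 21.3, 13.4 and 88.2 CPM at 0 h, where replicate 3 stands apart. In KO#1 it fell by 3.95, and the call was lost without any single replicate of 24 h. KO#2-labelled libraries had 45.6, 1.66 and 1.17 CPM of Egr1 at 24 h, where replicate 1 stands apart. Epha4 was at 16.4 to 26.5 CPM in wt at 0 h against 126 to 182 in KO#1 and 161 to 183 in KO#2-labelled libraries, log2 differences of 2.75 (adjusted p 1.28e-06) and 2.94 (6.90e-07). At 24 h Epha4, an ephrin receptor, had fallen in all lines, though in wt not without replicate 3 at 0 h (-0.66, adjusted p 0.0749) or replicate 1 at 24 h, to 11.4 to 14.2, 28.7 to 33.7 and 30.8 to 59.6 CPM, and was still higher in both lines labelled KO.

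**Figure D5:**
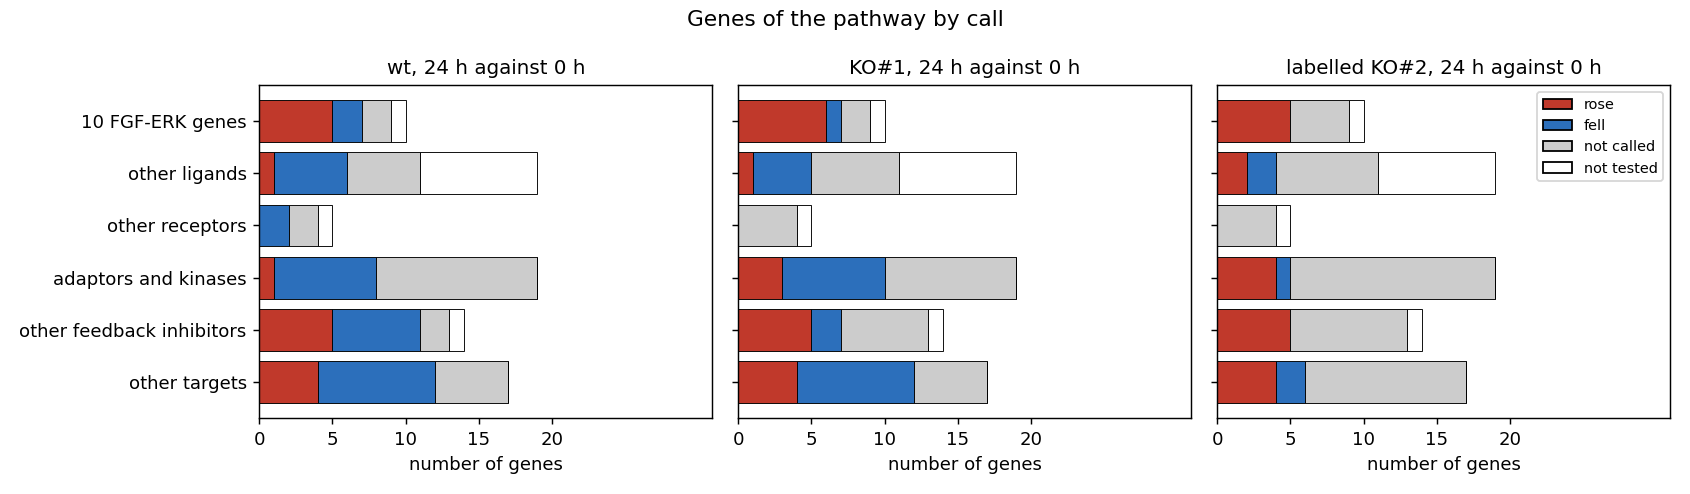
Number of genes of each role that rose, fell, did not pass or were not tested at 24 h against 0 h, in wt, KO#1 and KO#2-labelled libraries, with the 10 FGF-ERK genes on top. Of the 14 other feedback inhibitor genes, 6 fell in wt and 2 in KO#1, and 5 rose in each line.

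Over the 18 libraries, the gene of the most similar pattern in log2 CPM was Sema3e for Dusp6, with Pearson's r of 0.973, and Mmp9 and Cgnl1 followed with 0.971 and 0.961. For Spry2 these were Sox11 (0.909), Nefm (0.871) and Fam117a (0.866). The nearest gene was Ppp2r2d for Fgf15 (0.977), Naprt for Etv4 (0.967), Zdhhc18 for Fgfr1 (0.961), Mfsd7b for Fgfr2 (0.943), Msantd2 for Spry4 (0.943), Dusp1 for Fgf4 (0.830) and Lrrc14 for Etv5 (0.767). These values describe 18 points that share libraries, depth and the split between time points, and they were chosen as the highest of all genes tested.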

How the data were processed

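RNA of 18 libraries was sequenced, 3 biological replicates in each of 6 groups. Per the study's methods, the authors prepared stranded total RNA libraries, sequenced them with paired-end reads on a NovaSeq, and ran the nf-core RNA-seq pipeline (read trimming, removal of ribosomal reads, STAR alignment to Ensembl GRCm38, duplicate marking, Salmon and StringTie) before DESeq2. The deposited values are whole-number counts per gene, not normalized. The annotation release and the use of strand in counting are not given in the sources used here. Column sums are the depth, and intervals and floors cover counting error only. All 153 pairs of libraries differed.

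Counts were tested with edgeR 4.0.16 (R 4.3.3) by the quasi-likelihood test with TMM factors, filterByExpr with a minimum count of 10, all 6 groups in 1 fit and Benjamini-Hochberg adjustment at 0.05. The common dispersion was 0.0970. The SE is the log2 fold change divided by the root of F. CPM used the TMM-scaled library size, and RPKM the union of exons in GENCODE M21, which held 45143 of the 45706 genes. Patterns were compared on log2 CPM with a prior count of 2. The script was tested on simulated data.

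The 10 genes are all described, and further pathway genes come from lists by role, with values for the largest changes in wt and for differences from wt. Genes and lists were chosen with earlier results of these data known. Marker lists covered fibroblasts and pluripotent, naive, epiblast, primitive endoderm and primitive streak cells.

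Replicate numbers are shared by the groups but the labels do not say that they mark a batch. For KO#1 against wt at 24 h same-numbered libraries correlated at 0.480, 0.223 and 0.587, and the numbers were taken as pairs there. In no other comparison were all correlations over 0.1.

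Alternatives were DESeq2 1.42.0, other size factors, other filters, protein-coding genes only, the groups compared alone, a replicate block, and each library left out. The groups alone with the block were added after seeing the data. Promoter stretches were read from a RefSeq table of GRCm38.p6 and searched on both strands.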

Additional observations from a re-analysis of the deposited data

Results flagged for a closer look

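Spry2 and Spry1 responded to induction in opposite directions in wt and in the lines labelled KO, and the interaction of line and time passed for both. The differences for KO#1 and KO#2-labelled libraries share the wt libraries, so they are not independent of each other. For Spry2 the difference in log2 response from wt was 2.59 in KO#1 and 2.14 in KO#2-labelled libraries. For Spry1 it was 2.23 (adjusted p 0.0291) in KO#1 and 2.23 (adjusted p 0.0130) in KO#2-labelled libraries. The Spry1 difference in KO#1 lost its call with library sizes alone (2.09, adjusted p 0.195), with the groups alone and the replicate block (2.24, 0.0654) and without 7 of the 18 libraries, taken singly, with an adjusted p of up to 0.101 without replicate 3 of wt at 0 h. Klb differed in its response by 2.41 (adjusted p 0.0336) in KO#2-labelled libraries, where wt fell and those libraries did not pass. That call was lost with the groups compared alone (adjusted p 0.0526) and without 7 of the 18 libraries, taken singly, with an adjusted p of up to 0.113 without replicate 3 of wt at 0 h. In KO#1 the Klb difference was 2.01 with an adjusted p of 0.141.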

How the results depend on the processing

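Over 81 tests of the 9 genes, with a library left out 1350 values kept direction and side of the threshold. Of the others, 49 lost and 10 gained their call, and 49 changed sign without a call in either run. Under other alternatives these counts were 638, 24, 30 and 15, and no called value changed sign. Of the 9 genes, 7 changed in KO#1 over time, and 4 did so with library sizes alone or at an adjusted p under 0.01. For KO#2-labelled libraries against wt at 0 h the count of 4 became 2 with library sizes alone or without a filter, and 1 with at least 10 counts in every library, with the groups compared alone, at an adjusted p under 0.01 or with a log2 fold change of at least 1. For KO#1 against wt at 24 h the count of 1 became 0 at an adjusted p under 0.01 and also with at least 10 counts in every library, a filter that leaves Fgfr2 untested, 2 with the groups compared alone and 5 with those groups and the replicate block. For KO#2-labelled libraries against wt at 24 h it was 2 in DESeq2, without a filter, and with the groups alone with or without the block, and 4 with library sizes alone. The response count of KO#1 was 2 in DESeq2, without a filter, with at least 10 counts in every library and with protein-coding genes only, and 0 with library sizes alone. That of KO#2-labelled libraries was 3 in DESeq2 and 2 with library sizes alone or without a filter. The cause of these changes was not tested. Leaving out each library in turn gave 6 to 8 genes in wt over time, 4 to 7 in KO#1 and 4 to 5 in KO#2-labelled libraries, 2 and 1 to 4 against wt at 0 h, 0 to 1 and 1 to 2 at 24 h, and 1 to 2 for the response of KO#1. The 4 in KO#1 came without replicate 2 of either time point. Hras, -1.01 in KO#2-labelled libraries against wt at 24 h, was 0.011 with library sizes alone. With the replicate block in the fit of all groups the counts were 8, 7 and 5 over time, 2 and 3 at 0 h, 1 and 1 at 24 h, and 1 and 1 for the responses, which moved none by over 1.5 times. Genes with few counts, such as Fgf8, Fgf15 at 0 h and Fgfr2, are limited by depth.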
